A study of Mus musculus with 16 samples.

Results

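Genes of adipocytes and lipid storage were followed in mouse dorsal skin before and after a short topical treatment with Janus kinase (JAK) inhibitors or their solvent. The 32 genes were chosen by symbol for their known roles in fat cells. They cover the lipid droplet coat, secreted adipokines, adipogenic transcription factors, uptake of fatty acids, glycerol and glucose, lipolysis, triglyceride synthesis and fatty acid synthesis. Each gene was read from the probe set, a group of short array probes for a transcript, whose platform annotation gave that symbol alone and whose mean over the 16 arrays was highest. It was kept when it exceeded log2 4 on at least 2 arrays. Of the 32 genes 28 had such a probe set and all of these 28 were kept, among 12082 genes tested. The droplet coat gene Plin1, the adipokine gene Cfd, the fatty acid ligase gene Acsl1 and the beta-adrenergic receptor gene Adrb3 had no probe set listed under exactly 1 symbol and were not analysed here.

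The animals were 9 female mice of the inbred strain C57/B6 (written C57/B7 in the sample titles), 8.5 weeks old at the start. Each gave a dorsal skin biopsy at day 0, before any treatment, and these 9 arrays form the day-0 group. Skin was then treated topically every day for 4 days, and at day 5 a second biopsy was taken from the treated skin of 7 of the mice. The day-5 groups were the vehicle dimethyl sulfoxide (DMSO, mice 2 and 3), ruxolitinib (mice 4 and 6) and tofacitinib (mice 7, 8 and 9). Both drugs inhibit JAKs, the kinases that relay the signals of many cytokine receptors, and the sources used here give no dose for either. All 3 day-5 groups had been biopsied before and had 4 days of applications. A day-5 group without these was not analysed here, so age, earlier biopsy and application cannot be told apart in any difference from day 0. Mouse 7 was kept in the tofacitinib group, as its title and treatment label say, although the free description of its day-5 array speaks of ruxolitinib. Nothing beyond these labels was used to group the arrays, and p-values measure the spread between these mice.

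In mouse back skin a layer of white adipocytes lies between the dermis and a sheet of skeletal muscle, and it thickens and thins with the hair cycle. A white adipocyte takes up fatty acids or makes them from glucose, joins them to glycerol 3-phosphate as triglyceride, keeps this in a coated droplet and releases it again through lipases. It also secretes hormones such as leptin and adiponectin. Several of the enzymes that make fatty acids and triglyceride are also strongly used by sebaceous glands and epidermis, and Fabp4 and Cd36 are also expressed by capillary endothelium. A whole-skin array mixes all of these cells, and fewer cells of a type cannot be told apart from less RNA in each.

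The values were log2 expression values made with GCRMA, a background correction and normalization for this kind of array, so that a difference of 1 is a 2-fold difference. Array medians lay between 3.75 and 3.94 and the brightest probe set of each array between 13.93 and 14.08. Background was read from 27 controls that match no mouse transcript, whose median was 1.70 and whose maximum was 2.43. On that scale Adipoq, Fabp4, Lpl and Plin4 were well above background on every array. The number of arrays limits the precision of every comparison.

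The promoters of 3 members are shown, Lep and Cidec because all of their day-5 arrays lay above all of their day-0 arrays, and Adipoq as the gene of the defining adipokine, whose arrays overlapped between the days. They are the 250 bases before a RefSeq transcript start in GRCm38.p6, read 5′ to 3′ on the gene's strand. Lep and Adipoq had 1 window each. Cidec had 2, and the one shown was chosen because it holds the match marked below. Capitals mark a match to TTGCNNAA on either strand, the core of a C/EBP site, the element bound by the adipogenic factor encoded by Cebpa.

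Lep, chr6:29059971-29060220, plus strand: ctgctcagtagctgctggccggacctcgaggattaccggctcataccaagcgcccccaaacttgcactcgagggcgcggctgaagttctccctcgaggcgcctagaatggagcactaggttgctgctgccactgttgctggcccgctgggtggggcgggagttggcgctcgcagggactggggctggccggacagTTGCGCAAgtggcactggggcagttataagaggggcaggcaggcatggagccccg

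Cidec, chr6:113434765-113435014, minus strand: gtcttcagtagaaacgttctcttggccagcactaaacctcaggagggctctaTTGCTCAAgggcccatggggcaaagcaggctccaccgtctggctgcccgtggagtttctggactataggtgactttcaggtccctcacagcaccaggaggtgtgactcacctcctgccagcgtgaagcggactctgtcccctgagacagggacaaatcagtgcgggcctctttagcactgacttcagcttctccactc

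Adipoq, chr16:23146286-23146535, plus strand: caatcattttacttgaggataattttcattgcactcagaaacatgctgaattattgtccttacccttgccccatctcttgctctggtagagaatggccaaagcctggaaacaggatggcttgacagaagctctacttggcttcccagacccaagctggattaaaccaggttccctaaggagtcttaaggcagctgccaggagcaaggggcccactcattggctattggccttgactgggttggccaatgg

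The match in Lep starts 55 bases before the transcript start and is the full palindrome TTGCGCAA, which is held by 0.164% of all 32851 windows of this length and by no other member. The match in Cidec starts 198 bases before the transcript start of the window shown. TTGCGCAA is a special case of TTGCNNAA. The latter was in 9.56% of all windows and in 4 of the 30 windows of members (Lep, Cidec, Plin1 and Pparg). Those 30 windows cover 23 members. CACGTG is the E-box type bound by the glucose-responsive factor encoded by Mlxipl. It was in 6.02% of all windows and in 2 of the 30, those of Lipe and of Mlxipl itself. TTCNNNGAA, the STAT element, was in 7.02% of all windows and in 0 of the 30 windows of members. These are letter matches within the windows and not measured binding sites.

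Before any treatment the adipocyte genes varied widely between the biopsies of the 9 mice. The median standard deviation over the 9 day-0 arrays was 0.91 for the 28 members and 0.26 for all 12082 genes. It exceeded 1 in 11 of the 28 members, 39.3%, and in 265 of all genes, 2.19%. Cidec, whose protein fuses lipid droplets into larger ones, had the third largest standard deviation of all genes (2.42). Its day-0 arrays ran from 3.53 through a median of 8.37 to 9.74, a 73.8-fold range. Retn, the gene of the adipokine resistin, ran from 4.46 through 9.25 to 10.87, an 84.9-fold range and the widest among the members. Lep, the leptin gene, ran from 2.31 through 6.89 to 7.93, a 49.3-fold range whose lowest array lay at the control background.

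**Figure D1:**
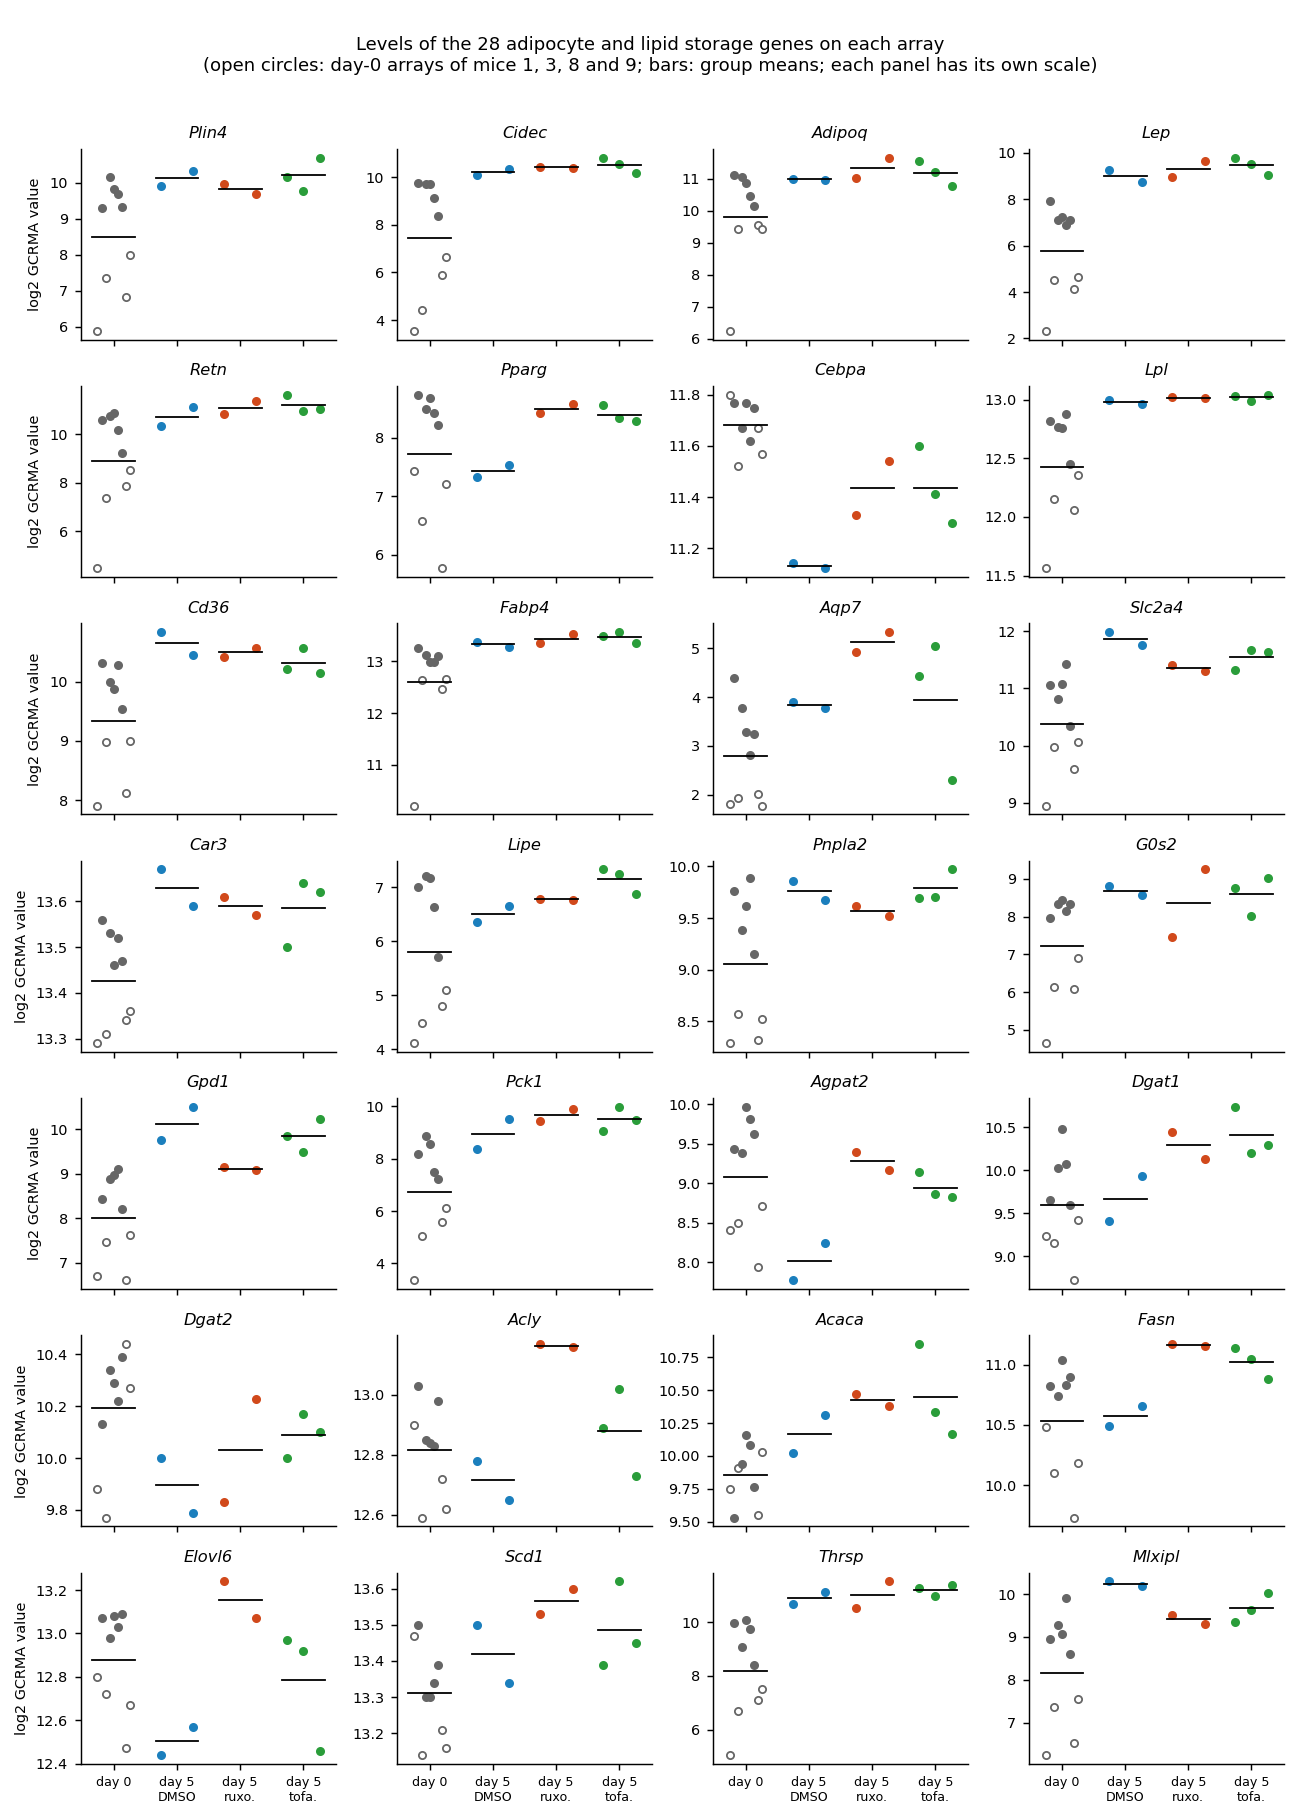
Log2 GCRMA value (y axis, own scale in each panel) of each of the 28 genes on every array, by group (x axis), with bars at the group means. The day-0 arrays of mice 1, 3, 8 and 9 (open circles) lie below the other 5 day-0 arrays in 23 of the 28 panels, and day-5 arrays spread less than day-0 arrays in most panels.

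Wide day-0 ranges were also found for Pck1 (5.51 on the log2 scale), Thrsp (5.03), Adipoq (4.90), Plin4 (4.27), G0s2 (3.78), Mlxipl (3.66), Lipe (3.09), Fabp4 (3.05) and Pparg (2.98). Mouse 1 set part of these ranges. Without its array the range was 1.70 for Adipoq and 0.80 for Fabp4, the latter near the median of all genes (0.77), while it stayed at 5.31 for Cidec, 3.80 for Lep and for Pck1, 3.48 for Retn, 3.37 for Thrsp and 3.33 for Plin4. At the other end Cebpa and Car3 ranged over 0.27, Scd1 over 0.36, Acly over 0.44, Elovl6 over 0.62, Acaca over 0.63 and Dgat2 over 0.67, all under the median range of all genes (0.77). Adipokine and droplet genes were thus at the wide end and several fatty acid synthesis enzymes at the narrow end, but for some genes the place depended on the probe set. Car3, a carbonic anhydrase abundant in adipocytes and muscle, ranged over only 0.27 in the probe set used, which read 13.29 to 13.56 near the top of the scale, and over 1.25 to 3.45 in its 3 other kept probe sets. For Scd1 the other kept probe set ranged over 1.63, and for Elovl6 the 2 others over 1.66 and 3.09. Among the 13 members with more than 1 kept probe set, 15 of the 19 others had a wider day-0 range than the one used.

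The day-5 arrays spread less than the day-0 arrays, but the ranges do not cover the same mice. Mouse 1, the lowest day-0 array in 16 members, and mouse 5 gave no day-5 array. The median range of the members was 2.48 over the 9 day-0 arrays and 0.86 over the 7 day-5 arrays of all treatments, while all genes had 0.77 and 0.85. The day-0 range was the larger in 23 of 28 members (82.1%), against 44.7% of all genes. Lpl, the lipase that frees fatty acids from blood lipoproteins, read between 12.96 and 13.04 on the 7 day-5 arrays after 11.56 to 12.88 at day 0. Its other kept probe set, which reads lower, ranged over 0.97 at day 5 after 2.35 at day 0. Fabp4, the fatty acid carrier of adipocytes, ranged over 0.27 at day 5 in the probe set used, which read 13.28 to 13.56 near the top of the scale, and over 0.42 and 0.75 in the others, against 4.06 and 5.19 at day 0. The exceptions were Aqp7, Cebpa, Acly, Acaca and Elovl6, whose day-5 range was the larger.

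**Figure D2:**
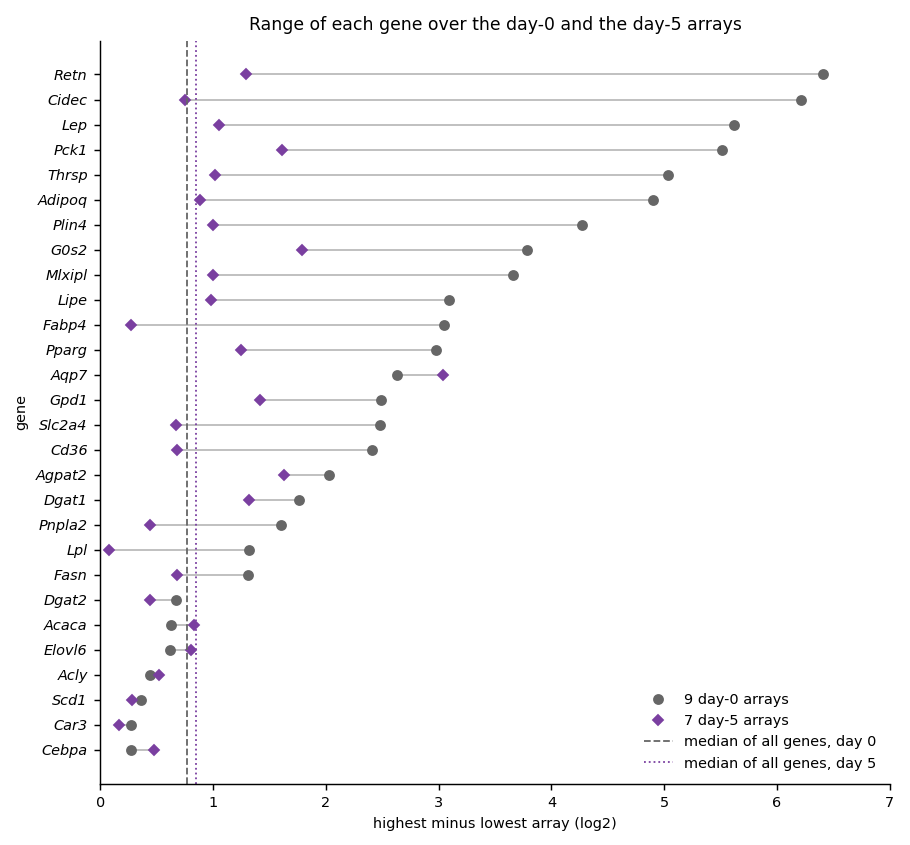
Highest minus lowest array on the log2 scale (x axis) for each gene (y axis), over the 9 day-0 arrays (circles) and the 7 day-5 arrays (diamonds), with the medians of all genes as vertical lines. Retn, Cidec, Lep, Pck1 and Thrsp range over more than 5 units at day 0 and over 0.75 to 1.61 units at day 5.

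The low day-0 values came from the same 4 biopsies. In 23 of the 28 members the day-0 arrays of mice 1, 3, 8 and 9 all lay below those of mice 2, 4, 5, 6 and 7, which held for 1546 of all genes (12.8%). Mouse 1 was the lowest of the 9 in 16 members. For Lep these 4 arrays read 2.31, 4.50, 4.13 and 4.63, and the other 5 read 7.93, 7.10, 7.25, 6.89 and 7.09. Plin4, a droplet coat protein of adipocytes, stood between 9.29 and 10.15 in the 5 and was as low as 5.88 in the 4. The exceptions were Cebpa, Dgat2, Acly, Acaca and Scd1. The set of 4 was defined as the arrays that scored below 0 on the leading principal component of 11885 genes outside all gene lists used here. That component held 53.3% of the day-0 variance of these genes. Because the 9 arrays fell into these sets of 4 and 5, no correlation between genes over the day-0 arrays was computed.

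Markers of other tissue layers split the day-0 arrays in the same way. The mean of 20 skeletal muscle genes was 12.05 to 12.64 on the 4 arrays and 12.73 to 13.01 on the 5, and that of 14 endothelial genes 2.59 to 3.68 and 4.04 to 4.60. The 10 basal keratinocyte genes went the other way, with 11.88 to 12.11 on the 4 and 11.63 to 11.82 on the 5. The 24 measured genes of a list of other adipocyte markers read 6.53 to 7.48 and 8.18 to 8.80. Sebaceous gland markers (10.33 to 11.28 against 11.12 to 11.50) and fibroblast markers (6.78 to 8.34 against 7.63 to 8.34) overlapped. The difference between 3-prime and 5-prime control probe sets, which rises as RNA is degraded, was 1.78 on the array of mouse 1, the largest value of the series. It was 1.35, 1.48 and 1.44 on those of mice 3, 8 and 9, and 1.28 to 1.47 on the 5. The part of muscle content, vessel content and RNA quality in the adipocyte values was not tested.

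**Figure D3:**
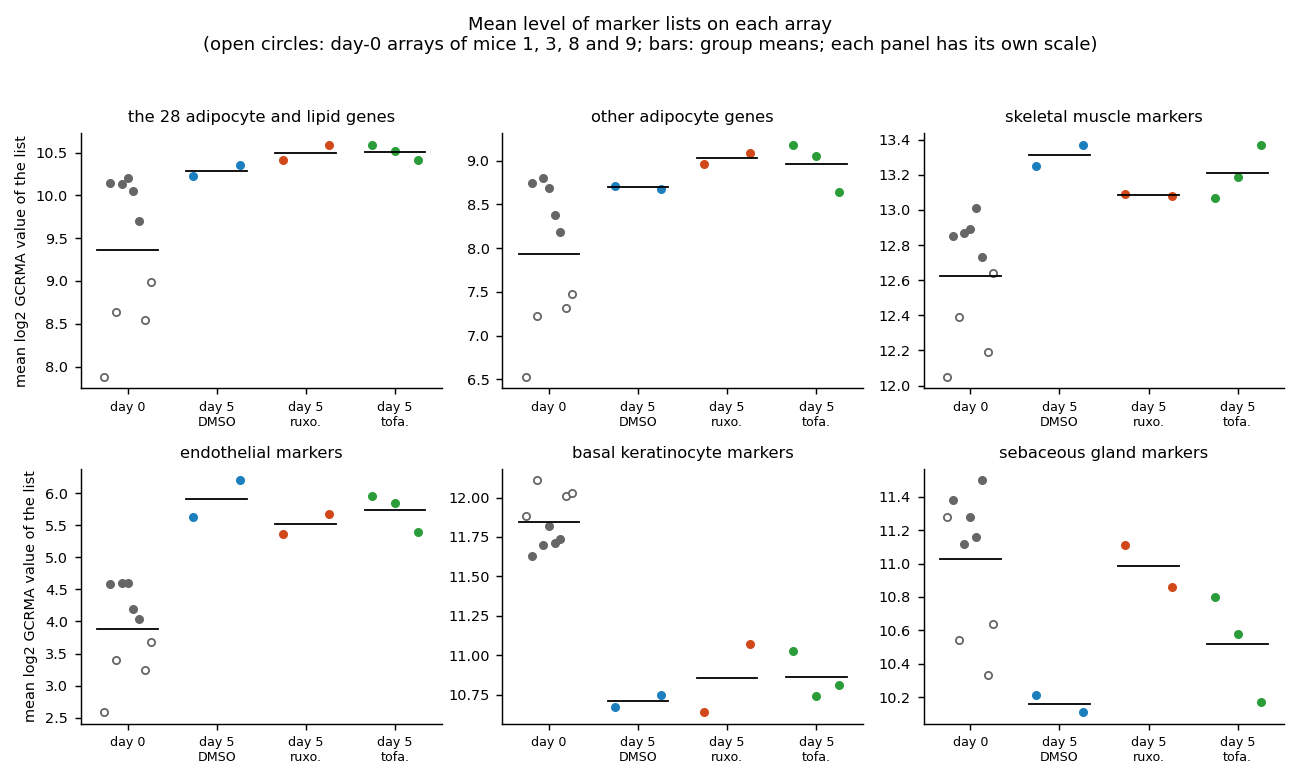
Mean log2 GCRMA value of each list (y axis, own scale in each panel) on every array, by group (x axis), with bars at the group means. The adipocyte, muscle and endothelial lists are low on the open circles (day-0 arrays of mice 1, 3, 8 and 9), and every day-5 array lies above every day-0 array for muscle and endothelium and below for basal keratinocytes.

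Each day-5 group was then compared with day 0, to see which adipocyte genes differed after 5 days with vehicle alone and with each inhibitor. The 3 comparisons used the same 9 day-0 arrays and are given side by side. Lep and Thrsp rose in all 3 groups. Of the 28 members 5 rose and 2 fell with DMSO (17.9% and 7.14%). These shares were under the background, since limma called 51.1% of all genes in this comparison, 22.2% higher and 28.9% lower. With ruxolitinib 5 rose and 0 fell, 17.9% of the members against 33.9% of all genes called (12.5% higher and 21.4% lower), and 1 member, Cebpa, was lower at an unadjusted p under 0.05. With tofacitinib 10 rose and 1 fell, 35.7% and 3.57%, against 50.1% of all genes called (22.7% higher and 27.4% lower).

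Most members that did not pass still had a value above 0. The difference was positive in 22, 26 and 24 of 28 members with DMSO, ruxolitinib and tofacitinib, against 47.2%, 48.0% and 48.4% of all genes. Its median over the members was 0.70, 0.83 and 0.94, against -0.05, -0.03 and -0.02 for all genes. With the mouse as a fixed block, which uses only the change within each animal, the calls became 5 higher and 0 lower with DMSO. They were 0 with ruxolitinib, so that none of its calls held there, and 17 higher and 0 lower with tofacitinib. Of all genes 30.6%, 10.9% and 39.4% were called in these fits. Mice 8 and 9 of the tofacitinib group and mouse 3 of the DMSO group had low day-0 arrays, and neither ruxolitinib mouse did. With day 0 reduced to the 5 mice with higher values (2, 4, 5, 6 and 7) the calls were 6 higher and 4 lower, 6 higher and 0 lower, and 9 higher and 1 lower. Of all genes 43.6%, 32.4% and 38.6% were called there, and the median difference of the members shrank to 0.23, 0.29 and 0.43. The arrays left out are those on which most members are low. Leaving them out raises the day-0 mean of those members and narrows their spread by construction. Differences from the 5 arrays are therefore given below as sizes with no test, and their smaller size is no check on the rises.

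**Figure D4:**
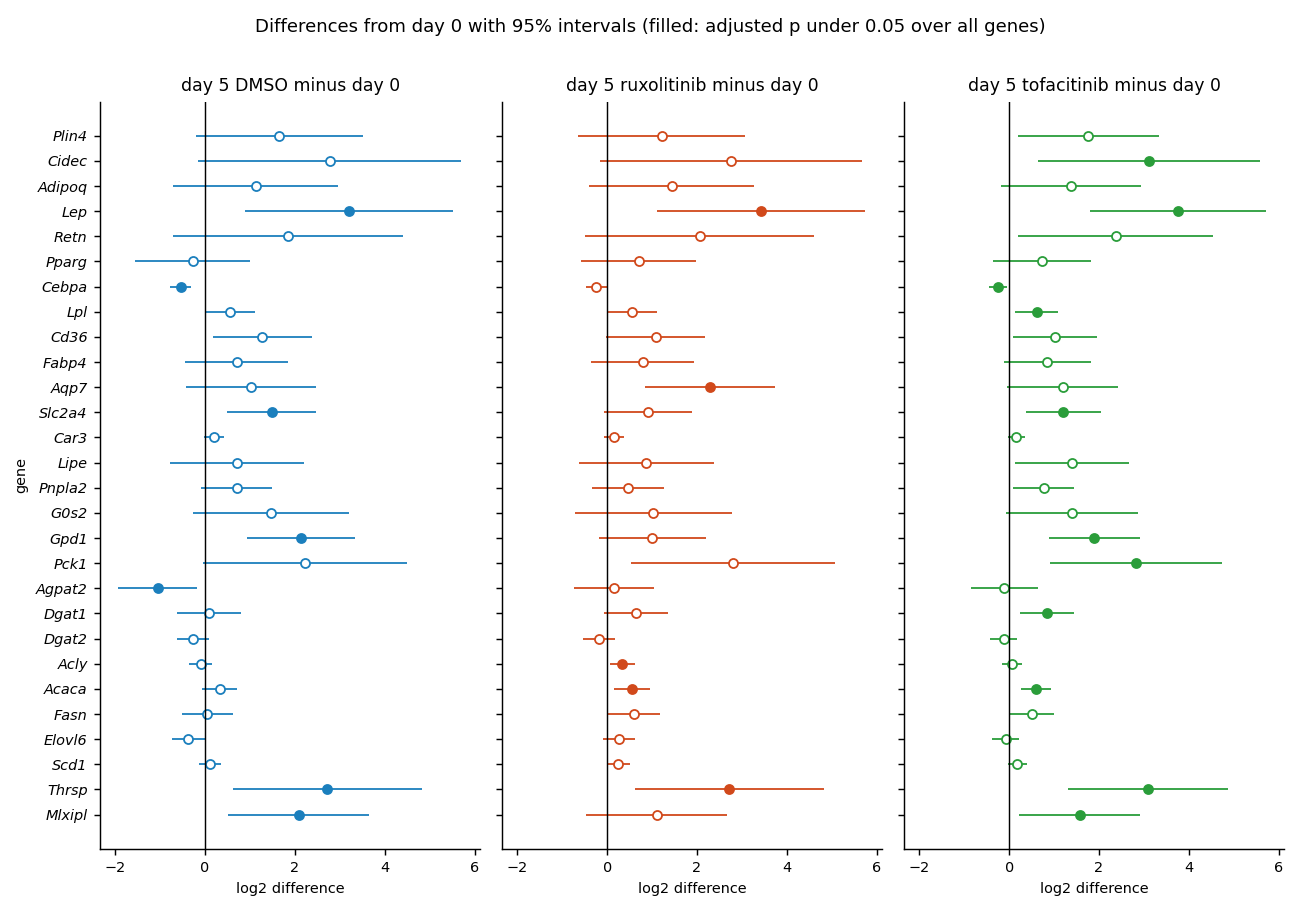
Log2 difference of each day-5 group from day 0 (x axis) for each gene (y axis), with 95% intervals from limma, filled where the adjusted p over all genes was under 0.05. Lep and Thrsp are filled in all 3 panels, and the intervals of Cidec, Retn, Lep and Pck1 are among the widest.

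Droplet coat genes were higher on average after day 0 in every group, but only Cidec with tofacitinib passed. At day 5 Cidec read 10.08 and 10.33 with DMSO, 10.44 and 10.41 with ruxolitinib and 10.83, 10.58 and 10.20 with tofacitinib. All 7 arrays lay above the highest day-0 array (9.74). The log2 difference was 2.78 ± 1.37 (SE, adjusted p = 0.102) with DMSO, 2.76 ± 1.37 (adjusted p = 0.130) with ruxolitinib and 3.12 ± 1.16 (adjusted p = 0.0366) with tofacitinib. Against the 5 higher day-0 arrays alone the differences were 0.82, 1.07 and 1.31. The tofacitinib call of Cidec held under 18 of 29 alternatives and was lost without the tofacitinib array of mouse 7, 8 or 9. Plin4 stood at 9.91 and 10.33 with DMSO, 9.98 and 9.70 with ruxolitinib and 10.15, 9.77 and 10.70 with tofacitinib. It overlapped with day 0 and did not pass (adjusted p = 0.124, 0.291 and 0.0587), except with tofacitinib under the fixed block (2.15 ± 0.53, adjusted p = 0.0194). Against the 5 higher day-0 arrays its tofacitinib difference was 0.57.

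Among the adipokines Lep rose in every group. It read 9.27 and 8.75 with DMSO, 8.97 and 9.65 with ruxolitinib and 9.80, 9.53 and 9.06 with tofacitinib, against at most 7.93 at day 0. The rise was 3.20 ± 1.08 on the log2 scale with DMSO (adjusted p = 0.0231), 3.43 ± 1.08 with ruxolitinib (adjusted p = 0.0242) and 3.75 ± 0.92 with tofacitinib (adjusted p = 0.00408), or 9.21, 10.8 and 13.5 times the day-0 level. Against the 5 higher day-0 arrays it was smaller, 1.70, 2.15 and 2.26. With the fixed block it passed with DMSO (2.79 ± 0.79, adjusted p = 0.0370) and tofacitinib (4.18 ± 0.64, adjusted p = 0.00534) but not with ruxolitinib. The DMSO call was lost without the DMSO array of mouse 2 or of mouse 3 and with the RNA quality covariate described below (1.96 ± 0.91, adjusted p = 0.0990), and the ruxolitinib call without that of mouse 4 or of mouse 6.

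The adiponectin and resistin genes overlapped with day 0 or missed the threshold. Adipoq read 11.01 and 10.98 with DMSO, 11.03 and 11.67 with ruxolitinib and 11.57, 11.21 and 10.78 with tofacitinib, with 4 of the 7 arrays inside the range of the 5 higher day-0 arrays (10.16 to 11.14) and 3 above it. Its differences were 1.13 ± 0.86, 1.44 ± 0.86 and 1.38 ± 0.73 (adjusted p = 0.285, 0.206 and 0.128). Retn read 10.34 and 11.13, then 10.82 and 11.37, then 11.63, 10.95 and 11.06, in the same order of groups. Its differences of 1.85 ± 1.20, 2.06 ± 1.20 and 2.37 ± 1.02 did not pass (adjusted p = 0.209, 0.194 and 0.0640). Both passed with tofacitinib under the fixed block, Adipoq at 1.47 ± 0.35 (adjusted p = 0.0174) and Retn at 2.68 ± 0.67 (adjusted p = 0.0205). Mice 8 and 9 of that group had low day-0 arrays. Against the 5 higher day-0 arrays the tofacitinib differences were 0.53 for Adipoq and 1 for Retn.

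Neither Cebpa nor Pparg, a pair of transcription factors that drive adipocyte differentiation, rose in any group. Cebpa was nearly constant at day 0 (11.52, median 11.67, 11.80) and read 11.14 and 11.12 with DMSO, below every other array of the series. It fell by 0.54 ± 0.11 with DMSO (adjusted p = 0.00122) and by 0.24 ± 0.09 with tofacitinib (adjusted p = 0.0462). With ruxolitinib its difference of -0.24 ± 0.11 missed the threshold (adjusted p = 0.101). With the fixed block it no longer passed in any group (with DMSO, adjusted p = 0.0582). The tofacitinib call of Cebpa was lost under 20 of 29 alternatives and its DMSO call under 2. Pparg, the nuclear receptor at the head of the adipocyte program, read 7.33 and 7.54 with DMSO, 8.43 and 8.58 with ruxolitinib and 8.57, 8.34 and 8.29 with tofacitinib. The 5 higher day-0 arrays read 8.22 to 8.74, so that the DMSO arrays lay below them and the inhibitor arrays among them. Against all 9 day-0 arrays its differences were -0.28 ± 0.60, 0.70 ± 0.60 and 0.74 ± 0.51 and did not pass (adjusted p = 0.710, 0.376 and 0.238). Against the 5 alone they were -1.11, 0.01 and -0.08.

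Genes of uptake and handling were higher on average, with calls for Lpl, Slc2a4 and Aqp7 in some groups. Lpl read 13.00 and 12.96 with DMSO, 13.02 and 13.01 with ruxolitinib and 13.03, 12.99 and 13.04 with tofacitinib. All 7 arrays exceeded the highest day-0 array (12.88). Its difference was about the same in the 3 groups, 0.55 ± 0.26, 0.55 ± 0.26 and 0.61 ± 0.22, and passed with tofacitinib only (adjusted p = 0.0938, 0.114 and 0.0338). That call held under 17 of 29 alternatives. Fabp4 read 13.38 and 13.28, then 13.35 and 13.52, then 13.49, 13.56 and 13.35, all above its day-0 range of 10.21 to 13.26. Its differences of 0.70 ± 0.53, 0.79 ± 0.53 and 0.85 ± 0.45 did not pass (adjusted p = 0.288, 0.263 and 0.128), except with tofacitinib under the fixed block (0.73 ± 0.19, adjusted p = 0.0242). Against the 5 higher day-0 arrays its tofacitinib difference was 0.38. Members whose 7 day-5 arrays all exceeded all day-0 arrays were Cidec, Lep, Lpl, Fabp4 and Thrsp, 5 of 28, against 8.48% of all genes.

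Slc2a4 encodes the insulin-responsive glucose transporter of fat and muscle. It read 11.98 and 11.75 with DMSO, 11.40 and 11.30 with ruxolitinib and 11.32, 11.67 and 11.64 with tofacitinib, against 8.95 to 11.43 (median 10.35) at day 0. It rose with DMSO (1.48 ± 0.46, adjusted p = 0.0158) and tofacitinib (1.21 ± 0.39, adjusted p = 0.0195) and did not pass with ruxolitinib (0.91 ± 0.46, adjusted p = 0.140). Cd36, a fatty acid transporter, stood at 10.83 and 10.45, 10.42 and 10.56, and 10.21, 10.56 and 10.15, with differences of 1.27 ± 0.51, 1.08 ± 0.51 and 1.02 ± 0.44. None passed (adjusted p = 0.0504, 0.117 and 0.0638), but with the fixed block Cd36 passed with tofacitinib (1.42 ± 0.34, adjusted p = 0.0187). Against the 5 higher day-0 arrays its tofacitinib difference was 0.36. Aqp7, the channel through which adipocytes release glycerol, was near background. On 4 day-0 arrays and 1 tofacitinib array it did not exceed the brightest control. Its ruxolitinib arrays, at 4.92 and 5.33, were above the day-0 maximum of 4.40, a rise of 2.29 ± 0.68 (adjusted p = 0.0177) whose size is uncertain because of those low values. Car3 differed by 0.16 to 0.20 and did not pass in any group.

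Lipolysis genes had positive differences and no call. Lipe encodes hormone-sensitive lipase and Pnpla2 the lipase that starts triglyceride breakdown, which the product of G0s2 inhibits. Lipe read 6.35 and 6.65 with DMSO, 6.79 and 6.77 with ruxolitinib and 7.33, 7.24 and 6.88 with tofacitinib, against 4.11 to 7.20 at day 0. Its differences were 0.71 ± 0.70, 0.87 ± 0.70 and 1.41 ± 0.60 (adjusted p = 0.416, 0.351 and 0.0608). Pnpla2 differed by 0.70 ± 0.37, 0.46 ± 0.37 and 0.77 ± 0.32 and G0s2 by 1.47 ± 0.81, 1.03 ± 0.81 and 1.39 ± 0.69. With the fixed block Lipe (1.96 ± 0.48, adjusted p = 0.0195) and Pnpla2 (1.12 ± 0.27, adjusted p = 0.0186) passed with tofacitinib. Against the 5 higher day-0 arrays these tofacitinib differences were 0.52 and 0.26.

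Of the enzymes that supply glycerol 3-phosphate Gpd1 rose with DMSO and both Gpd1 and Pck1 with tofacitinib, and of those that build triglyceride on it Dgat1 rose with tofacitinib and Agpat2 fell with DMSO. Gpd1, which makes glycerol 3-phosphate from glycolysis, read 9.75 and 10.50 with DMSO, 9.15 and 9.08 with ruxolitinib and 9.84, 9.48 and 10.23 with tofacitinib, against 6.61 to 9.10 (median 8.22) at day 0. It rose by 2.13 ± 0.56 with DMSO (adjusted p = 0.00623), to 4.37 times the day-0 level, and by 1.90 ± 0.48 with tofacitinib (adjusted p = 0.00478), to 3.72 times. With ruxolitinib it did not pass (1.01 ± 0.56, adjusted p = 0.173). Pck1, which makes glycerol 3-phosphate from pyruvate and lactate in fat, read 8.38 and 9.50 with DMSO, 9.44 and 9.88 with ruxolitinib and 9.05, 9.98 and 9.49 with tofacitinib. Its day-0 arrays ran from 3.35 through 7.24 to 8.86. It rose 7.12-fold with tofacitinib (2.83 ± 0.90, adjusted p = 0.0178) and missed the threshold with ruxolitinib (2.80 ± 1.06, adjusted p = 0.0543) and DMSO (2.23 ± 1.06, adjusted p = 0.0919). Against the 5 higher day-0 arrays the differences with DMSO, ruxolitinib and tofacitinib were 0.79, 1.53 and 1.46 for Pck1. For Gpd1 they were 1.41, 0.3 and 1.16.

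Agpat2, which adds the second fatty acid chain and whose loss causes lipodystrophy, was lower with DMSO. It read 7.77 and 8.25 there, 9.40 and 9.17 with ruxolitinib and 9.14, 8.87 and 8.83 with tofacitinib, against 7.94 to 9.97 (median 9.38) at day 0. The fall with DMSO was 1.06 ± 0.42 on the log2 scale (adjusted p = 0.0460), and with the inhibitors the difference was 0.15 ± 0.42 and -0.11 ± 0.35 (adjusted p = 0.798 and 0.817). The DMSO call was lost under 17 of 29 alternatives, among them the fixed block and the fit of only the groups compared. Against the 5 higher day-0 arrays its differences were -1.61, -0.34 and -0.69. Of the enzymes that complete the triglyceride, Dgat1 rose with tofacitinib (0.85 ± 0.28, adjusted p = 0.0230), to 10.74, 10.20 and 10.30 from a day-0 median of 9.60. Dgat2 differed by -0.27 ± 0.17, -0.17 ± 0.17 and -0.12 ± 0.14 and did not pass.

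In fatty acid synthesis Thrsp rose in all 3 groups, Mlxipl and Acaca in 2 and Acly in 1. Thrsp, a lipogenic protein of fat and liver, read 10.70 and 11.14 with DMSO, 10.52 and 11.53 with ruxolitinib and 11.30, 10.98 and 11.38 with tofacitinib, all above the day-0 maximum of 10.08. It rose by 2.72 ± 0.99 in the first 2 groups (adjusted p = 0.0321 and 0.0454) and by 3.09 ± 0.84 with tofacitinib (adjusted p = 0.00747). Against the 5 higher day-0 arrays its differences were 1.38, 1.58 and 1.86. The ruxolitinib call was lost under 14 of 29 alternatives, among them the fixed block (1.61 ± 0.75, adjusted p = 0.201). Mlxipl encodes ChREBP, the factor that switches on lipogenic genes when glucose is abundant. It rose with DMSO (2.08 ± 0.74, adjusted p = 0.0297) to 10.30 and 10.19 and with tofacitinib (1.57 ± 0.63, adjusted p = 0.0492) to 9.34, 9.64 and 10.04, from a day-0 median of 8.60. With ruxolitinib, at 9.52 and 9.30, it did not pass (1.10 ± 0.74, adjusted p = 0.258). Against the 5 higher day-0 arrays its differences were 1.10, 0.12 and 0.55, and the tofacitinib call held under 12 of 29 alternatives.

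Acaca, which makes malonyl-CoA, the building block of the chain, read 10.47 and 10.38 with ruxolitinib and 10.85, 10.33 and 10.17 with tofacitinib, above all day-0 arrays (9.53 to 10.16). It rose by 0.55 ± 0.19 (adjusted p = 0.0324) and 0.60 ± 0.16 (adjusted p = 0.00605), and with DMSO, at 10.02 and 10.31, it did not pass (0.33 ± 0.19, adjusted p = 0.155). Acly, which supplies its acetyl-CoA, rose with ruxolitinib, to 13.17 and 13.16 from a day-0 median of 12.84 (0.34 ± 0.13, adjusted p = 0.0480). That call was lost under 18 of 29 alternatives. Fasn, the fatty acid synthase, read 10.49 and 10.66 with DMSO, 11.17 and 11.15 with ruxolitinib and 11.14, 11.05 and 10.88 with tofacitinib, and its differences of 0.05 ± 0.27, 0.60 ± 0.27 and 0.52 ± 0.23 did not pass.

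Elovl6, which lengthens the synthase's product, and Scd1, which desaturates it, did not pass in any group. Elovl6 read 12.44 and 12.57 with DMSO, 13.24 and 13.07 with ruxolitinib and 12.97, 12.92 and 12.46 with tofacitinib (-0.38 ± 0.17, 0.27 ± 0.17 and -0.08 ± 0.15, adjusted p = 0.0804, 0.242 and 0.667). Its dimmest kept probe set differed by -2.50, -1.70 and -2.13 and so went against the used one with ruxolitinib. Scd1 differed by 0.11 ± 0.12, 0.25 ± 0.12 and 0.18 ± 0.10, and its second kept probe set by 0.53, 1.20 and 1.08.

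The 7 mice biopsied on both days allow the change to be read within each animal. From day 0 to day 5 the median change over the 28 members was 0.10 in mouse 2 and 1.29 in mouse 3 (DMSO), 0.25 in mouse 4 and 0.21 in mouse 6 (ruxolitinib), and 0.71, 1.79 and 1.12 in mice 7, 8 and 9 (tofacitinib). The 3 largest changes were in mice 3, 8 and 9, whose day-0 arrays were low, and both ruxolitinib mice had high day-0 arrays. How much a treatment group changed therefore went together with which mice it held. In 10 members the day-5 array was the higher in all 7 mice (Cidec, Lep, Lpl, Cd36, Fabp4, Car3, Pck1, Acaca, Scd1 and Thrsp), against 17.0% of all genes. For Scd1 the change was 0.00 after rounding in mice 2 and 7. Cebpa was lower in all 7 mice, by 0.08 to 0.62, which held for 24.1% of all genes. Lep was higher by 1.34 and 4.24 in mice 2 and 3, 1.87 and 2.76 in mice 4 and 6, and 2.71, 5.40 and 4.43 in mice 7, 8 and 9. Adipoq changed by -0.13 and 1.54, -0.03 and 1.19, and 1.41, 1.66 and 1.34 in the same mice.

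**Figure D5:**
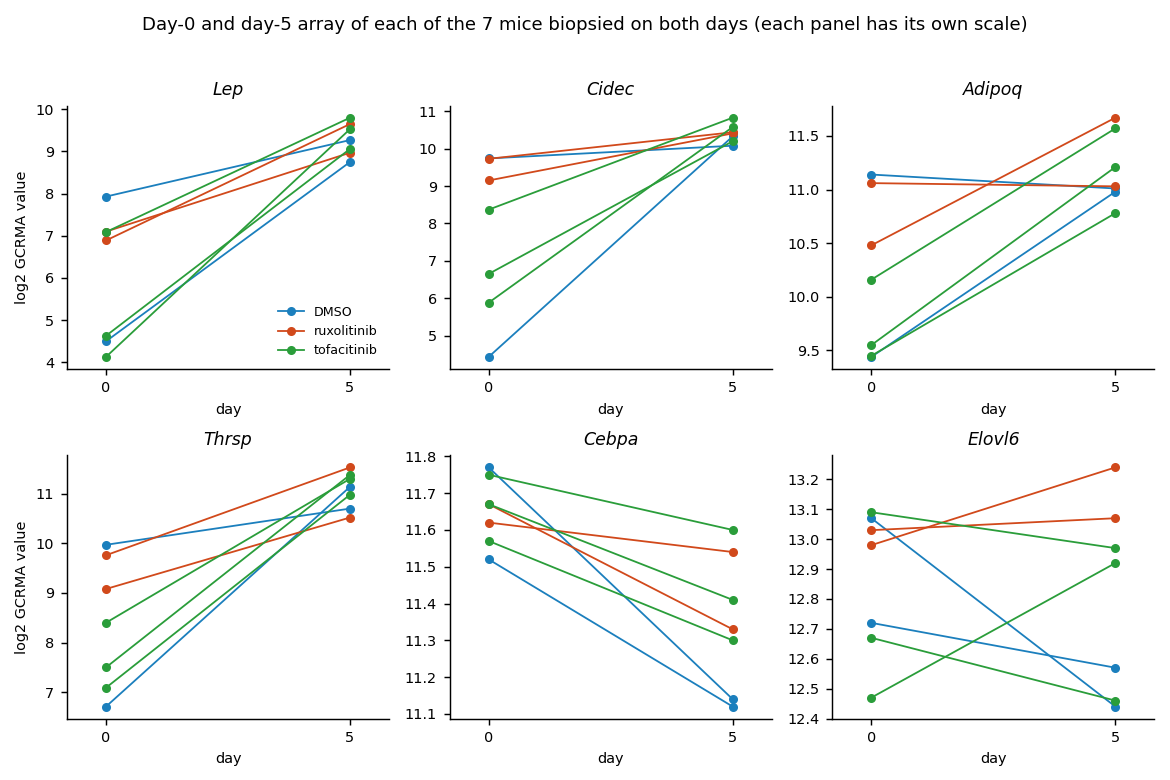
Log2 GCRMA value (y axis, own scale in each panel) of 6 genes at day 0 and day 5 (x axis, days), with a line for each of the 7 mice biopsied on both days, coloured by treatment. Lep, Cidec and Thrsp are higher at day 5 in all 7 mice and Cebpa is lower in all 7, and for Elovl6 both DMSO lines go down while both ruxolitinib lines go up.

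Markers of other cell types moved between the days too. Endothelial genes rose in 12, 10 and 14 of 14 cases with DMSO, ruxolitinib and tofacitinib, and their mean was 2.59 to 4.60 at day 0 and 5.36 to 6.20 at day 5. Muscle genes rose in 14, 2 and 16 of 20, with means of 12.05 to 13.01 at day 0 and 13.07 to 13.37 at day 5. All 10 basal keratinocyte genes fell in each group. Of all genes 22.2%, 12.5% and 22.7% rose and 28.9%, 21.4% and 27.4% fell. With the muscle mean of each array as a covariate 0 members rose in any group, while 5 fell with DMSO, 0 with ruxolitinib and 1 with tofacitinib. Of all genes 22.9%, 28% and 21.9% were called in these fits. Lep then stood at -0.06 with DMSO and no longer passed with the inhibitors. The muscle mean separates the days completely, and a covariate of that kind absorbs some of the day difference whatever its source. With the 3-prime minus 5-prime difference as a covariate, a measure of RNA quality, 1 member rose and 2 fell with DMSO, 5 rose with ruxolitinib and 6 rose with tofacitinib. Of all genes 40.4%, 32.5% and 43% were called there. With DMSO Lep, Thrsp (1.84 ± 0.96, adjusted p = 0.138), Slc2a4 (1.05 ± 0.44, adjusted p = 0.0716) and Mlxipl (1.43 ± 0.73, adjusted p = 0.129) lost their calls and Gpd1 kept its own (1.75 ± 0.59, adjusted p = 0.0300). That difference was 1.28 to 1.78 at day 0 and 1.24 to 1.41 at day 5. The part of muscle and vessel content in the rise of the adipocyte genes was not tested beyond these covariates.

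Of 24 other adipocyte genes measured 5 rose and 2 fell with DMSO, 7 rose with ruxolitinib and 9 rose with tofacitinib. The shares that rose, 20.8%, 29.2% and 37.5%, stand beside 22.2%, 12.5% and 22.7% of all genes. The median difference was 0.79, 0.96 and 0.93. The 2 that fell with DMSO were Orm1 (-1.07 ± 0.28) and Bscl2 (-0.62 ± 0.18; limma, adjusted p = 0.00627 and 0.0116). Gpihbp1, in this list although it anchors the lipase encoded by Lpl to capillary walls, rose by 2.81 ± 0.62, 2.66 ± 0.62 and 2.90 ± 0.53 (adjusted p = 0.00201, 0.00463 and 0.000532). The part of vessel content in its rise was not tested. Rbp4, a retinol carrier secreted by fat and liver, rose by 3.47 ± 0.96 with ruxolitinib (adjusted p = 0.0126) and 3.94 ± 0.82 with tofacitinib (adjusted p = 0.00137). Its DMSO value is not given, which does not make the rise particular to the inhibitors. None of the 24 genes passed between an inhibitor and DMSO at day 5. The largest such differences were 0.84 with ruxolitinib and 0.89 with tofacitinib. Among 15 other triglyceride and droplet genes 4, 2 and 6 rose (26.7%, 13.3% and 40.0%) and 2 fell in each group. Lpin1, a phosphatidate phosphatase of fat and muscle, rose by 1.74 ± 0.38, 1.09 ± 0.38 and 1.48 ± 0.32, while Lpin3 fell by 1.59 ± 0.17, 0.79 ± 0.17 and 1.21 ± 0.14 and the widely expressed droplet protein gene Plin3 by 0.96 ± 0.18, 1.28 ± 0.18 and 0.87 ± 0.15. Among 14 other fatty acid synthesis genes 3, 3 and 6 rose (21.4%, 21.4% and 42.9%) and 4, 3 and 3 fell. The desaturase genes Fads1 and Fads2 rose in all 3 groups, Fads1 by 1.74 ± 0.31, 1.72 ± 0.31 and 1.51 ± 0.26, and Scap, the escort of the lipogenic factor SREBP, fell by 1.11 ± 0.14, 0.63 ± 0.14 and 0.81 ± 0.12.

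The inhibitors were next set against vehicle at day 5, which holds the earlier biopsy and the application constant. The spread of each gene was taken from all 16 arrays, so the wide day-0 spread of the members also enters these tests. No member passed, with 0 of 28 called by limma for ruxolitinib against DMSO (0.521% of all genes were called, 0.406% higher and 0.116% lower), tofacitinib against DMSO (0.166%, all of them higher) and the mean of both inhibitors against DMSO (0.935%, with 0.836% higher and 0.0993% lower). At an unadjusted p under 0.05 there were 3, 1 and 4 members. For ruxolitinib these were Elovl6 (0.64 ± 0.22, adjusted p = 0.183), Acly (0.45 ± 0.16, adjusted p = 0.201) and Agpat2 (1.21 ± 0.54, adjusted p = 0.300), for tofacitinib Cebpa (0.30 ± 0.13, adjusted p = 0.538). In Pparg, Cebpa, Lipe, Agpat2, Dgat1 and Fasn all 5 inhibitor arrays lay above both DMSO arrays, 6 of 28 members against 8.72% of all genes, and in Slc2a4 and Mlxipl all 5 lay below, 2 of 28 against 7.23%. For Pparg the difference from DMSO was 0.99 ± 0.78 with ruxolitinib (adjusted p = 0.556) and 1.02 ± 0.71 with tofacitinib (adjusted p = 0.779), and with the fixed block 0.26 ± 0.91 and 1.56 ± 0.83 (adjusted p = 0.907 and 1). With the mean of all kept probe sets in place of the brightest, Acly passed for ruxolitinib (1.03 ± 0.19, adjusted p = 0.0183). Of 8 sebaceous gland markers 0 passed in these comparisons, and their mean was 10.11 to 10.21 with DMSO, 10.86 to 11.11 with ruxolitinib and 10.17 to 10.80 with tofacitinib, which overlaps DMSO. The mean of 10 differentiated keratinocyte markers did not overlap, with 11.18 to 11.45 with DMSO, 11.91 to 12.09 with ruxolitinib and 11.88 to 12.28 with tofacitinib. All 10 were above DMSO on average with each inhibitor, and 1 of them passed for the mean of both inhibitors. The part of sebaceous and epidermal content in the values of Acly, Elovl6, Agpat2 and Pparg was not tested.

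Ruxolitinib and tofacitinib were compared with each other in 1 pair of groups for the 28 members, with p-values adjusted over all genes and at doses that are not given. No member differed, with 0 called by limma and 0 at an unadjusted p under 0.05 (0.0248% of all genes were called), and the smallest adjusted p was 0.898. The intervals say how large a difference could have been missed. For Lep tofacitinib minus ruxolitinib was 0.32 with a 95% interval from -2.42 to 3.07, for Adipoq -0.06 (-2.24 to 2.12) and for Cidec 0.35 (-3.11 to 3.82). With the fixed block, where the changes of the mice are compared, it was 1.86 ± 1.02 for Lep, 0.89 ± 0.55 for Adipoq and 2.58 ± 1.48 for Cidec (adjusted p = 0.468, 0.510 and 0.484), and the median over the members was 0.99 in place of 0.05. No member passed there either. Among narrow ones Cebpa had 0.01 (-0.28 to 0.29), Car3 0.01 (-0.26 to 0.27), Acaca 0.05 (-0.42 to 0.52) and Lpl 0.06 (-0.61 to 0.72). The interval stayed within 1 log2 unit on either side in 9 members and reached beyond it in 19. In Gpd1, Lipe and Pnpla2 the 3 tofacitinib arrays lay above both ruxolitinib arrays (3 of 28 members, and 9.1% of all genes), and in Acly, Fasn, Elovl6 and Agpat2 below (4 of 28, and 7.73%). For Gpd1 the difference was 0.88 ± 0.67 (adjusted p = 0.914) and for Acly -0.27 ± 0.15 (adjusted p = 0.898).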

How the data were processed

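RNA of 16 whole-skin biopsies was amplified, labelled with biotin and hybridized to mouse arrays, per the labels' protocols. The deposited log2 values were made by the authors with GCRMA, per the submitters' processing notes. The sources used here name no version and do not say if the 16 arrays were processed jointly. Of 45101 probe sets 34958 had 1 gene symbol in the platform's table, 932 had several and 9211 were not listed there. The symbols of all 28 members were current in RefSeq. Taking the probe set with the highest mean per gene left 12082 of 18194 genes above log2 4 on 2 or more arrays.

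Genes were fitted with limma 3.58.1 in R 4.3.3, with a mean for each group and a random effect of the mouse (duplicateCorrelation gave 0.0983, with 12 residual and 2.86 prior degrees of freedom). Adjusted p-values are Benjamini-Hochberg values over the 12082 genes of a comparison, and a gene passed under 0.05. Errors are standard errors, and intervals are 95% intervals of the fit. The fit was also run on simulated arrays to check the code, which says nothing about these mice. The labels place both biopsies on the same mouse, which gives the pairing. As a check, deviations from the group mean were correlated between the arrays of each of 7 mice, which gave -0.183 to 0.178 and more than 0.1 in 2 mice. The planned correlations with Adipoq over day 0 and their alternatives were not run, because the day-0 arrays fell into sets of 4 and 5. All members were described. Of each other list at most the 4 genes with the smallest p in a comparison were open to naming. A named gene without a value for a group was not thereby unchanged there. The members and all lists, tests and alternatives were chosen with earlier results of these data known. Promoters were credited to RefSeq (GRCm38.p6), which held 23 of the 32 genes.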

Additional observations from a re-analysis of the deposited data

Results flagged for a closer look

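Among the 28 members, each tested over its 9 day-0 arrays, 2 had a lowest array set apart from the rest by more than Dixon's 95% limit, where chance flags about 1 in 20. Adipoq read 6.24 in mouse 1 at day 0 and at least 9.44 in the other 8 mice. Fabp4 read 10.21 in the same mouse and at least 12.46 in the others. Mouse 1 gave no day-5 array. Elovl6 had changes of opposite sign within the animals of 2 treatments. It was lower at day 5 in both DMSO mice (-0.63 and -0.16) and higher in both ruxolitinib mice (0.26 and 0.04), a difference of mean changes of -0.54. Tested in limma with the mouse as a fixed block, ruxolitinib minus DMSO was 0.54 ± 0.32 and did not pass (adjusted p = 0.437). The same groups compared at day 5 alone did not pass either (adjusted p = 0.183).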

How the results depend on the processing

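The limits of these results are the 2 or 3 arrays per day-5 group, the wide day-0 spread and probe sets near the top of the scale. Leaving out 1 array at a time, the count of members passing ranged from 1 to 8 with DMSO against day 0 (7 with all arrays), from 0 to 7 with ruxolitinib (5) and from 5 to 17 with tofacitinib (11), and was 0 in each of the 4 comparisons among day-5 groups. The extremes came without DMSO mouse 3 (1) or 2 (2), without either ruxolitinib array (0 each), without tofacitinib mouse 8 or 9 (5 each) and without the day-0 array of mouse 6 (17). A lone remaining array was assumed to vary like the other groups. Under the fixed mouse replicate block, which pairs both arrays of an animal, 5, 0 and 17 passed against day 0 (30.6%, 10.9% and 39.4% of all genes). With separate day-0 means for the mice of each treatment 13, 0 and 17 passed (49.3%, 24.7% and 46.6% of all genes). With the muscle covariate 5, 0 and 1 passed (22.9%, 28% and 21.9% of all genes), and with the 3-prime minus 5-prime covariate 3, 5 and 6 (40.4%, 32.5% and 43%). With only the groups compared 6, 3 and 7 passed (54.9%, 35% and 47.4%). The counts were also 6, 3 and 7 with an absolute log2 difference of at least 1 required as well (25.4%, 15.5% and 19.7%). With no replicate block 7, 5 and 9 passed (49.9%, 33.5% and 47.7% of all genes). Between day-5 groups, ruxolitinib against DMSO had 2 members once day 0 was reduced to mice 2, 4, 5, 6 and 7 (Pparg and Agpat2), where dropping low arrays narrows the spread by construction, 1 with the mean of probe sets (Acly) and 1 with the muscle covariate (Agpat2). Tofacitinib against DMSO had 1 with day 0 so reduced (Pparg), and both inhibitors against DMSO had 2, 1 and 1 under the same 3 settings. Among member differences past the threshold in either setting, the changes of sign came with the muscle covariate. Against day 0 these were, with DMSO, Plin4 (-1.22), Lep (-0.06), Slc2a4 (-0.02), Thrsp (-0.37) and Mlxipl (-0.40) and, with tofacitinib, Cidec (-0.57), Lpl (-0.10), Slc2a4 (-0.09), Pck1 (-0.04) and Mlxipl (-0.58). Of the 23 calls against day 0, 6 held under at least 27 of 29 alternatives, namely Lep, Gpd1, Thrsp and Acaca with tofacitinib and Gpd1 and Cebpa with DMSO.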

Other observations

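Of 14 measured genes of adipocyte precursors and adipogenic regulation 7 rose and 2 fell with DMSO, 6 rose and 2 fell with ruxolitinib and 10 rose and 2 fell with tofacitinib. The shares that rose, 50%, 42.9% and 71.4%, stand beside 22.2%, 12.5% and 22.7% of all genes. Cebpd, an early adipogenic factor, rose by 1.91 ± 0.35 with DMSO and Klf15, a later one, by 2.09 ± 0.42 with tofacitinib (limma, adjusted p = 0.000599 and 0.00108), while Klf5 fell by 1.90 ± 0.34 with ruxolitinib. Zfp521, a repressor of adipocyte commitment, rose by 2.56 ± 0.43, 2.14 ± 0.43 and 1.91 ± 0.36 on the log2 scale (limma, adjusted p = 0.000276, 0.00161 and 0.000730), and Ebf2, a factor of brown and beige precursors, by 1.80 ± 0.26 with DMSO and 1.21 ± 0.26 with ruxolitinib. Pdgfra, a receptor marking fibroblasts and adipocyte precursors, rose by 1.72 ± 0.33 with tofacitinib (adjusted p = 0.000734). A group not given for a gene was not thereby unchanged. None of the 14 genes passed between an inhibitor and DMSO at day 5. These differences were -0.99 to 0.38 with ruxolitinib and -0.94 to 0.59 with tofacitinib. Rxra, the partner of the receptor encoded by Pparg, fell by 0.91 ± 0.10, 0.78 ± 0.10 and 0.64 ± 0.09. Fibroblast markers rose in 6, 8 and 7 of 12 cases (50%, 66.7% and 58.3%) and fell in 1, 1 and 0.

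Of 15 measured fatty acid oxidation genes 4, 1 and 5 rose with DMSO, ruxolitinib and tofacitinib (26.7%, 6.67% and 33.3%) and 1, 0 and 1 fell. Of all genes 22.2%, 12.5% and 22.7% rose. Ppargc1a, a coactivator of mitochondrial genes in muscle and brown fat, rose by 3.17 ± 0.51, 2.23 ± 0.51 and 2.12 ± 0.43 (limma, adjusted p = 0.000204, 0.00411 and 0.00122). Of 6 measured brown and beige markers 2, 0 and 3 rose (33.3%, 0% and 50%) and 1 fell in each group. Dio2, a thyroid hormone activating enzyme, rose by 2.86 ± 0.55 with DMSO and 2.29 ± 0.46 with tofacitinib. Cox7a1 rose by 1.42 ± 0.45 with DMSO and 1.26 ± 0.38 with tofacitinib (limma, adjusted p = 0.0159 and 0.0133). Ucp1, the defining uncoupling protein of brown fat, rose by 0.96 ± 0.30 with tofacitinib (limma, adjusted p = 0.0160). With ruxolitinib Dio2 (1.16 ± 0.55), Cox7a1 (0.82 ± 0.45) and Ucp1 (0.72 ± 0.35) did not pass. Prdm16, a brown fat regulator, fell by 0.93 ± 0.37, 1.06 ± 0.37 and 1.04 ± 0.31. None of the 6 passed between an inhibitor and DMSO at day 5.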
